A study of Homo sapiens with 11 samples.

Results

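RNA captured with J2, an antibody that binds double-stranded RNA, was compared between decitabine-treated HCT116 cells with and without knockdown of Staufen1, over the repeat elements of the genome. HCT116 is an established human colorectal cancer cell line. One library came from cells given an siRNA against luciferase (siLuc, the control siRNA) and the DNA methylation inhibitor decitabine (DAC), and the other from cells given an siRNA against Staufen1 (siStau1) and decitabine. Both sets of cells received decitabine at 500 nM for 5 days per the labels. Another J2 library, from siLuc cells given the solvent DMSO, is printed beside them as the untreated control. No J2 library of the series came from siStau1 cells with DMSO. What the siRNA does without decitabine therefore cannot be told apart from what it does with it. The labels' protocol names an antibody against Staufen1 for the enrichment while the labels of these samples name J2, and they are called J2 libraries here. An element entered the comparison when it held 20 or more reads in the siLuc DAC and siStau1 DAC libraries together. This left 644672 of the 5622516 repeat elements in the table, and used 2 of the 11 libraries of the series. With 1 library per condition there is no replicate check and no test. Every interval below covers counting error only, and every difference is one between these 2 libraries.

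Staufen1 is a double-stranded RNA binding protein that takes part in RNA transport, translation and the decay of mRNAs with duplexes in their 3′ untranslated region. Repeat elements are a main source of long duplexes in human cells. A pair of Alu elements in opposite orientation can fold back within 1 transcript, and endogenous retroviruses and satellites can be copied from both strands. Decitabine lowers DNA methylation, which otherwise silences many long terminal repeat (LTR) promoters, and the duplexes that follow are sensed by innate immune receptors. The series title places the study in that response.

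The targeted gene was checked in the total RNA of the same conditions. In the authors' deposited table STAU1 (ENSG00000124214.19) had 33.7 FPKM in siLuc DAC and 27.1 FPKM in siStau1 DAC, with a q-value of 0.685. It had 35.5 FPKM in siLuc DMSO. The STAU1 mRNA value was lower in siStau1 DAC, but the difference was not called, so these values do not establish the knockdown. Protein was not analysed here. Several epithelial markers were present in both decitabine groups of the authors' deposited table. EPCAM, an epithelial adhesion molecule, had 117 and 179 FPKM in siLuc DAC and siStau1 DAC. The keratin KRT18 had 3469 and 2415 FPKM, and KRT20, another keratin, had 6.24 and 20.2 FPKM. CDX2, an intestinal transcription factor, had 7.11 and 7.47 FPKM, and CDX1 had 0.947 and 0.791 FPKM. VIL1, a brush border protein, had 0.164 and 0.198 FPKM. Of genes that are not epithelial markers, the collagen gene COL1A1 had 8.60 and 5.65 FPKM. PTPRC had 0.174 and 0.820 FPKM, and PECAM1 had 0.633 and 0.777 FPKM.

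Reads on repeats numbered 68944777 in siLuc DAC, 83037330 in siStau1 DAC and 71473124 in siLuc DMSO. The composition of the libraries differed. Alu elements held 46.8% of reads in siLuc DAC, 54.0% in siStau1 DAC and 57.5% in siLuc DMSO. Repeats derived from structural RNAs (7SL, 7SK, small nuclear, ribosomal and transfer RNA) held 23.5%, 18.6% and 21.1% in that order. Ratios below are log2 ratios of siStau1 DAC over siLuc DAC, with 0.5 reads added and each library scaled to its reads on repeats. They compare shares of the captured repeat RNA, not amounts per cell. More cells holding an RNA and more of that RNA per cell cannot be told apart. Whether a ratio near 0 lies above or below it depends on the scaling: the authors' own factors shift every ratio by −0.32, totals outside Alu by 0.21 and totals outside structural RNA repeats by −0.09. Differences between repeat groups are the same under all of them.

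The siLuc DAC library stood apart from the other two. Of the elements compared, 12925 had 0 reads in siLuc DAC, a background of 2.0%, whereas 2550 had 0 reads in siStau1 DAC, a background of 0.396%. The elements at 0 in siLuc DAC were not empty elsewhere: 7605 of them (58.8%) held 20 or more reads in siLuc DMSO, with a median of 24 reads in siLuc DMSO. By the limit on the summed reads each of them had to hold 20 or more reads in siStau1 DAC. Many of them lay next to each other, while 3684 had no compared neighbour at 0. In siStau1 DAC 2393 of the elements at 0 had none. The element that followed in the order of the deposited table was also at 0 in 55.0% of cases for siLuc DAC and in 3.25% for siStau1 DAC. Runs of 5 or more consecutive compared elements at 0 numbered 577 in siLuc DAC, with 5263 elements, and 0 in siStau1 DAC. The longest run in siLuc DAC spanned 67 elements of 45 families and 4 classes. These elements summed to 3099 reads in siLuc DMSO, 0 reads in siLuc DAC and 3659 reads in siStau1 DAC. The longest run in siStau1 DAC had 3 elements. What the order of the table means is not stated in the sources used here, and elements carry no positions, so a run cannot be placed in the genome and no sequence of an element is printed.

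**Figure D1:**
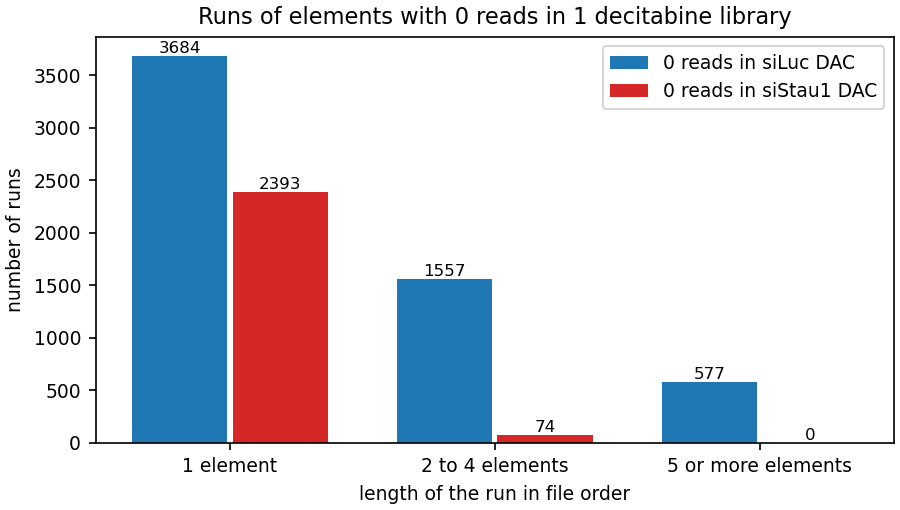
Number of runs of consecutive compared elements with 0 reads (y axis), by run length in the order of the deposited table (x axis), for siLuc DAC (blue) and siStau1 DAC (red), 1 library each. Runs of 1 element numbered 3684 against 2393, runs of 2 to 4 elements 1557 against 74, and runs of 5 or more 577 against 0.

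Gaps also appeared as elements with few reads. An element low in both decitabine libraries can miss the limit of 20 summed reads and is then not counted here. Among 383110 compared elements with 20 or more reads in siLuc DMSO, 14669 (3.83%) were 8-fold or more lower in siLuc DAC. In siStau1 DAC 174 (0.0454%) were so. The share in siLuc DAC was 23.9% for satellites, 11.8% for SVA retroposons, 7.88% for LTR elements, 4.99% for LINE, 3.30% for SINE and 2.58% for DNA transposons. The ratio of siStau1 DAC over siLuc DAC therefore has a long upper tail. Of 219366 elements with 100 or more reads in the 2 libraries together, 2280 had a log2 ratio of 4 or more and 46 had one of −4 or less. The log2 ratios of neighbouring compared elements were correlated, with Pearson's r of 0.51 at 1 element apart, 0.43 at 5, 0.27 at 20 and 0.067 at 100 elements apart. Elements are thus not independent, and intervals of medians are too narrow to that extent. Leaving out elements that are low in siLuc DAC lowers a median of the ratio by construction, so the values given below without them are descriptions. Their part in the other results was not tested.

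**Figure D2:**
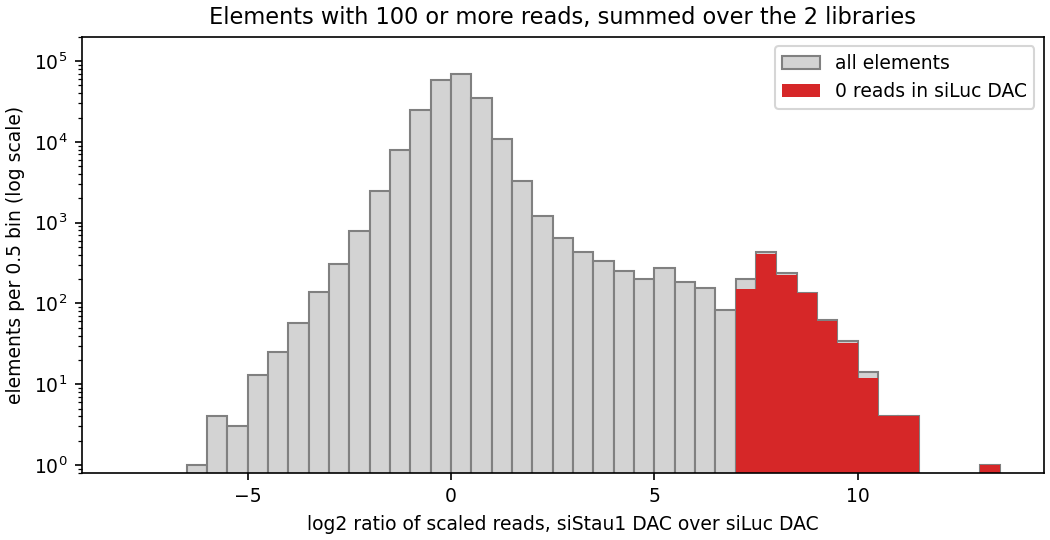
Number of elements per bin of 0.5 (y axis, log scale) by the log2 ratio of siStau1 DAC over siLuc DAC (x axis), for the 219366 elements with 100 or more reads in the 2 libraries together. Red bars are elements with 0 reads in siLuc DAC, whose place on the axis is set by the 0.5 reads added; the upper tail holds 2280 elements at 4 or above, against 46 at −4 or below.

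Over all 644672 elements the median log2 ratio was 0.03 (95% order-statistic interval 0.02 to 0.03), with quartiles of −0.58 and 0.62. Elements 2-fold or more higher in siStau1 DAC numbered 99658, a background of 15.5%, and those 2-fold or more lower numbered 95462, a background of 14.8%. This near balance depends on the scaling: with the authors' factors 68009 were higher and 142884 lower, and with totals outside Alu 129699 were higher and 73340 lower. It also depends on depth. Among elements of 20 to 49 reads 21.2% were 2-fold or more higher and 23.0% lower, while among those of 1000 or more reads 4.39% were higher and 1.64% lower.

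The repeat classes differed in their medians. The LINE median, over 105683 elements of the autonomous long interspersed elements, was −0.38, and 11.5% were 2-fold or more higher against 29.0% lower. DNA transposons, with 37862 elements, had a median of −0.27, with 11.1% higher and 25.1% lower. SINE elements, the short interspersed class that includes Alu, had a median of 0.15 over 403212 elements, with 16.7% higher and 9.39% lower. High shares came from small classes: 37.0% of 791 satellite elements and 36.6% of 1675 SVA elements were 2-fold or more higher, against 9.10% and 4.48% lower. LTR elements had a median of −0.06 and a 95th percentile of 4.43, against 2.23 over all elements, and 4.53% of them were at 0 in siLuc DAC. Without elements at 0 in either library the LTR median was −0.11.

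**Figure D3:**
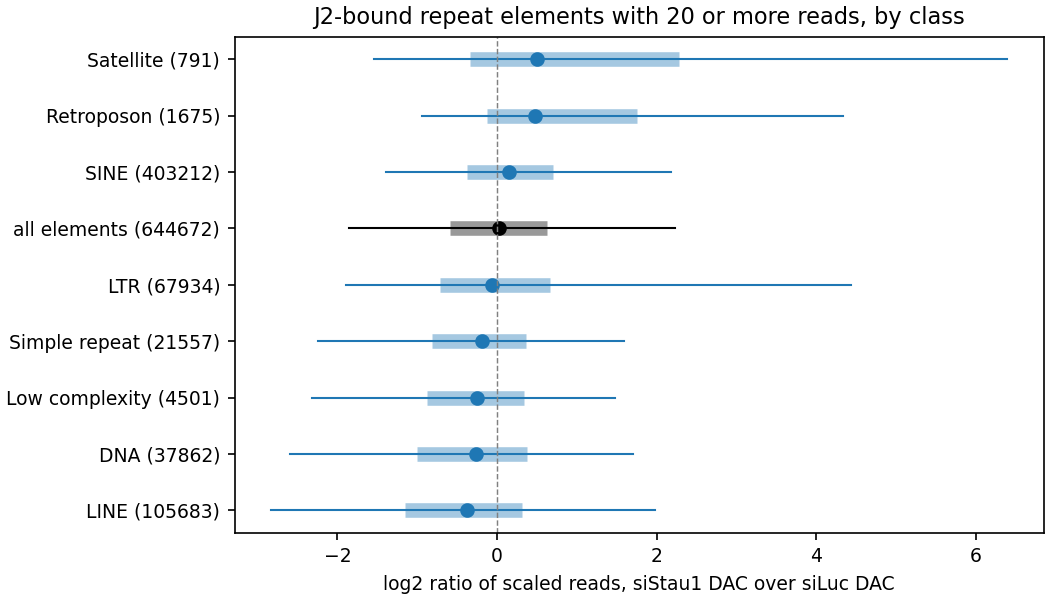
Log2 ratio of siStau1 DAC over siLuc DAC (x axis) by repeat class (y axis, with the number of elements): points are medians, thick bars the quartiles and thin lines the 5th to 95th percentiles. Small classes are not drawn. The 95th percentile is 6.39 for satellites and 4.43 for LTR elements, against 2.23 over all elements. Among the classes drawn the LINE and DNA boxes reach lowest, with lower quartiles of −1.15 and −1.0.

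The gap between the classes was smaller among well-covered elements. Over elements of 1000 or more reads the medians were −0.13 for LINE, −0.00071 for LTR, 0.04 for DNA transposons and 0.20 for SINE. The order of LINE below LTR below SINE held at both depths, whereas DNA transposons were below LTR over all compared elements and above LTR at 1000 or more reads.

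Summed by family, 1225 of 3466 families with 100 or more reads were higher in siStau1 DAC, a background of 35.3%. By class this was 46 of 60 SINE families, 222 of 582 LTR families, 37 of 302 DNA transposon families and 18 of 178 LINE families. These counts depend on the scaling. The authors' factors turned most SINE families the other way, with 2 of 60 higher, and left 6 LINE families higher. Totals outside Alu gave 58 SINE and 56 LINE families higher. LTR families higher numbered 59 under the authors' factors and 408 with totals outside Alu, and DNA transposon families 12 and 90. Families 2-fold or more higher were rare, at 2.14% of all families, and those 2-fold or more lower were 5.57%. Among LTR families 7 were 2-fold or more higher and 11 were 2-fold or more lower.

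LTR12C, the long terminal repeat of the HERV9 group and a known promoter source after epigenetic drug treatment, was higher in siStau1 DAC. Its summed reads were 1253 RPM (reads per 1000000 reads on repeats of the library) in siLuc DAC, 2053 in siStau1 DAC and 1808 in siLuc DMSO. The siLuc DAC library was the low one of the 3. The summed log2 ratio was 0.71 (95% interval 0.70 to 0.73), and the median over 1078 elements was 1.65 (1.39 to 1.90). Of these elements 617 were 2-fold or more higher and 26 lower, or 57.2% and 2.41% against the backgrounds of 15.5% and 14.8%. In siLuc DAC 196 LTR12C elements were at 0. Of 846 compared LTR12C elements with 20 or more siLuc DMSO reads, 290 (34.3%) were 8-fold or more lower there than in siLuc DMSO. In siStau1 DAC 0 of these 846 were. The median was 0.89 over elements with reads in both libraries, 0.66 without the 8-fold lower elements, and 0.35 over the 464 elements with 100 or more reads. Set against siLuc DMSO, the median of LTR12C was −1.33 in siLuc DAC and 0.11 in siStau1 DAC. The summed ratio remained above 0, at 0.39, under the authors' factors. The LTR12C element with most reads, LTR12C_9599, had 3958 reads in siLuc DMSO, 3131 under siLuc DAC and 4793 under siStau1 DAC, a log2 ratio of 0.35.

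Relatives of LTR12C were also examined. HERV9NC-int, an internal part of HERV9 proviruses that was chosen after its values were seen, had 270 RPM in siLuc DAC, 413 in siStau1 DAC and 329 in siLuc DMSO. Its median over 89 elements was 2.05 and its summed log2 ratio 0.61. The median was 0.91 without the elements 8-fold lower than siLuc DMSO, which were 37.1% of the compared ones with 20 or more siLuc DMSO reads. LTR12D had a median of 0.89 over 86 elements, or 0.70 without the 8-fold lower ones, and a summed log2 ratio of 0.72, with 98.6, 163 and 136 RPM in siLuc DAC, siStau1 DAC and siLuc DMSO. The family named LTR12_ had a summed log2 ratio of 0.97 and a median of 0.37. Its median was 0.10 over elements with reads in both libraries and 0.09 without the 8-fold lower ones. The family named LTR12 had 0.42 summed and 0.19 as a median. In HERV9-int and LTR12F the siLuc DMSO library was the lowest. HERV9-int, another internal part, had 125 RPM in siLuc DMSO, 140 under siLuc DAC and 180 under siStau1 DAC, and a median log2 ratio of 0.32 over 78 elements. LTR12F had 28.3 RPM in siLuc DMSO, 34.6 under siLuc DAC and 40.6 under siStau1 DAC, a summed log2 ratio of 0.23, which was −0.09 under the authors' factors.

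The summed value of HERVH-int, the internal part of HERVH proviruses, came largely from 1 element. The family had 1502 RPM in siLuc DAC, 2529 in siStau1 DAC and 1905 in siLuc DMSO, a summed log2 ratio of 0.75. HERVH-int_15656 held 59.6% of the family's reads, with 88590 reads in siLuc DMSO, 49858 under siLuc DAC and 136973 under siStau1 DAC. Without it the summed ratio was 0.18, and the median over 473 elements was 0.20. At 100 or more reads the HERVH-int median was −0.06. LTR7, the long terminal repeat of HERVH, had 64.0 and 77.5 RPM in siLuc DAC and siStau1 DAC, with a summed log2 ratio of 0.28 and a median of −0.02 over 85 elements. The LTR7 sum was 0.03 without its element with most reads, which held 21.3% of reads, and −0.05 under the authors' factors.

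Among ERVK, the youngest retroviral group in humans, the summed log2 ratio was −0.13 for all families together, 0.00 for the long terminal repeat LTR5_Hs over 202 elements, and −0.85 (−0.98 to −0.72) for HERVK-int over 26 elements. HERVK-int had 13.3 RPM in siLuc DMSO, 33.7 under siLuc DAC and 18.8 under siStau1 DAC. The siStau1 DAC value lay between the other two. HERVL-int, the internal part of HERVL, had a summed log2 ratio of 0.15 and a median of 0.29 over 423 elements, and its summed ratio was −0.17 under the authors' factors. The mammalian apparent LTR retrotransposons THE1B and MSTA had summed log2 ratios of 0.09 and 0.19 and medians of −0.07 and −0.07, so sums and medians differed in sign. MER41B, which carries interferon-responsive promoter elements, had −0.05 summed and −0.14 as a median over 268 elements. By group the summed log2 ratios were 0.17 for ERV1, 0.02 for ERVL, 0.05 for ERVL-MaLR and 0.23 for Gypsy, with medians between −0.04 for ERV1 and −0.07 for Gypsy. All 4 of these sums were below 0 under the authors' factors. The Gypsy sum was 0.03 without MamGyp-int_1861, its element with most reads.

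**Figure D4:**
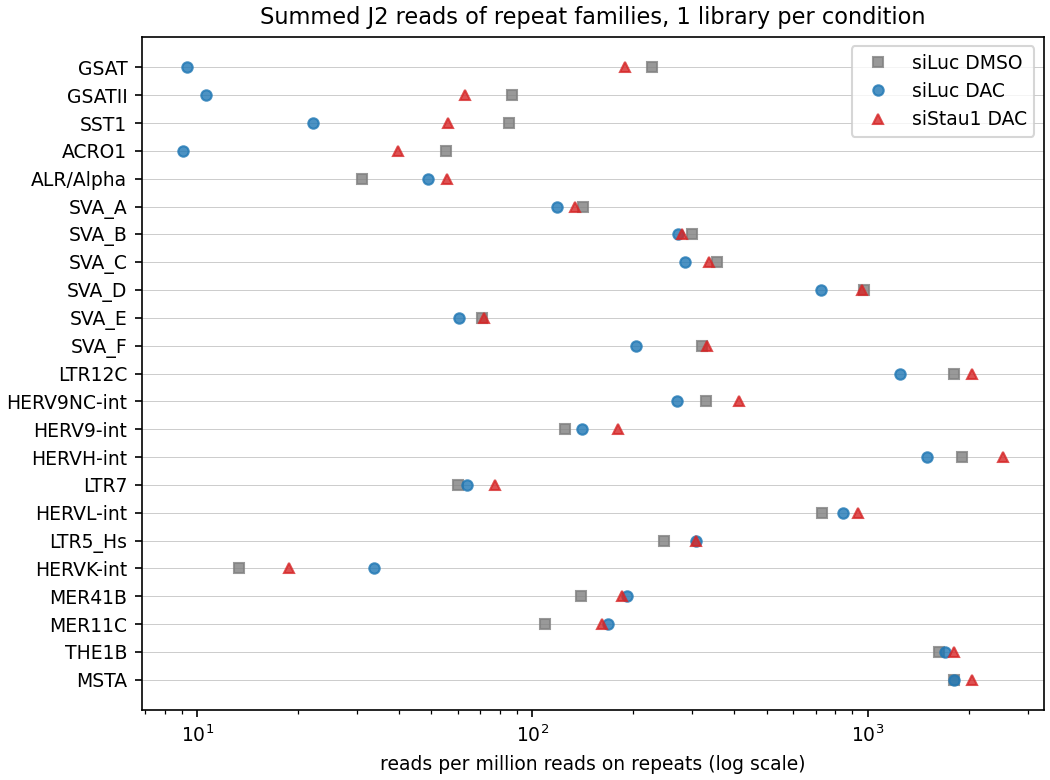
Summed J2 reads in RPM (x axis, log scale) of satellite, SVA and LTR families (y axis) in siLuc DMSO (grey squares), siLuc DAC (blue circles) and siStau1 DAC (red triangles), 1 library each; families differ in length and copy number, so levels compare within a family. In GSAT, GSATII, SST1, ACRO1 and LTR12C siLuc DAC is the lowest of the 3 libraries, while in HERVK-int it is the highest, at 33.7 RPM.

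Ranked by summed reads among 416 LTR families with 2000 or more reads and 10 or more compared elements, the highest were MamGyp-int, MER52-int and LTR12_. MamGyp-int, an old Gypsy-like internal sequence, had a summed log2 ratio of 1.94. One element, MamGyp-int_1861, held 52.5% of its reads, with 7311 in siLuc DMSO, 8 under siLuc DAC and 12330 under siStau1 DAC. Without it the ratio was 0.48. MER52-int had 1.28 summed and 0.39 as a median over 39 elements, of which 10 were at 0 in siLuc DAC. The lowest were LTR6A at −1.07, MER101-int at −1.05 and LTR37B at −1.05. One LTR6A element, with 5287 reads in siLuc DMSO, 18990 under siLuc DAC and 10518 under siStau1 DAC, held 89.5% of that family, and the ratio was −0.64 without it. In MER101-int and LTR37B no element held as much as LTR6A's, at 15.9% and 12.1%, and their medians were −0.73 and −1.02. In all 3 of the lowest families siLuc DMSO had the lowest RPM and siLuc DAC the highest. The ranking itself put siLuc DAC above siStau1 DAC there and favours families high in siLuc DAC. This order is therefore no separate result.

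Satellites, the tandem arrays of centromeres and short chromosome arms, included families with ratios past 2-fold. GSAT, a gamma satellite, had 228 RPM in siLuc DMSO, 9.34 under siLuc DAC and 189 under siStau1 DAC, a summed log2 ratio of 4.34 (4.18 to 4.50) over 16 compared elements. Its element with most reads, GSAT_1466, had 6006, 234 and 5791 reads in that order. Of the 16 elements 15 were 2-fold or more higher and 10 were at 0 in siLuc DAC. GSATII, a second gamma satellite, had 86.9, 10.6 and 62.8 RPM and a summed log2 ratio of 2.57 over 48 elements, 32 of them at 0 in siLuc DAC. With elements at 0 set to a floor of 3 reads in each library, the medians were 3.91 for GSAT and 3.39 for GSATII. Over GSATII elements with reads in both libraries the median was 0.90. Elements 8-fold or more lower in siLuc DAC than in siLuc DMSO were 14 of the 16 in GSAT and 33 of the 48 in GSATII. Without them the medians were 2.01 for GSAT and 0.83 for GSATII. The GSAT value thus rests on very few elements. Set against siLuc DMSO, the summed log2 ratio of siStau1 DAC was −0.27 for GSAT and −0.47 for GSATII.

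SST1, a satellite with macrosatellite arrays, had 85.3, 22.2 and 55.9 RPM in siLuc DMSO, siLuc DAC and siStau1 DAC, and a summed log2 ratio of 1.33. Its median was 2.2 over 59 elements and 1.60 over those with reads in both libraries, and its summed log2 ratio of siStau1 DAC over siLuc DMSO was −0.61. ACRO1, from acrocentric short arms, had 55.1, 9.07 and 39.8 RPM and a summed log2 ratio of 2.13 with 6 compared elements. Its median was 1.60 without the 8-fold lower ones, which were 3 of the 6. Alpha satellite (ALR/Alpha), the centromeric repeat, did not have this pattern: it had 31.1 RPM in siLuc DMSO, 48.7 under siLuc DAC and 55.7 under siStau1 DAC. Its summed log2 ratio was 0.20, with a median of 0.83 over 67 elements and −0.44 over the 15 with 100 or more reads. BSR/Beta and MSR1 had −0.14 and −0.14 summed. Satellite copies are nearly identical within an array, and how the authors' counting treated reads that fit several copies is not given in the sources used here, so the values of single satellite elements are uncertain.

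SVA elements are composite, hominoid-specific retroposons of the subfamilies A to F, of which E and F are the youngest. Their summed log2 ratios were 0.17, 0.03, 0.24, 0.40, 0.25 and 0.70 from SVA_A to SVA_F. SVA_F had 204 RPM in siLuc DAC, 331 in siStau1 DAC and 321 in siLuc DMSO. Of its 330 elements 47.3% were 2-fold or more higher and 3.94% lower, with a median of 0.83. The median was 0.61 without elements 8-fold lower than siLuc DMSO and 0.43 over 127 elements with 100 or more reads. SVA_D had 725, 959 and 977 RPM in siLuc DAC, siStau1 DAC and siLuc DMSO, and a median of 0.59 over 763 elements. The SVA_D median was 0.41 without elements 8-fold lower than siLuc DMSO and 0.16 at 100 or more reads. Under the authors' factors the sums of SVA_D and SVA_F stayed above 0, at 0.08 and 0.38, and those of the other 4 subfamilies were below 0.

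Alu elements, primate-specific SINEs derived from 7SL RNA, held 46.8% of the captured repeat RNA in siLuc DAC. The 3 age groups had nearly the same ratio: the medians were 0.20 for AluY, the youngest, over 35398 elements, 0.21 for AluS over 219679 elements and 0.14 for AluJ, the oldest, over 80580 elements. At 100 or more reads they were 0.18, 0.20 and 0.16. AluS had 313470 RPM in siLuc DAC, 365648 in siStau1 DAC and 395082 in siLuc DMSO. In each of the 3 age groups siStau1 DAC lay between siLuc DAC, which was lowest, and siLuc DMSO. Of AluS elements 17.7% were 2-fold or more higher and 7.33% lower. The free left and right monomers of Alu, which precede the dimeric form, had a median of −0.15, and −0.03 at 100 or more reads. MIR, an older tRNA-derived SINE shared by mammals, had a median of −0.07, taken from 59148 elements. With the authors' factors the summed ratios of AluY, AluS and AluJ were −0.13, −0.10 and −0.14, and totals outside Alu gave 0.40, 0.43 and 0.39. Their distance from MIR and from LINE is the same under each scaling.

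Of 57 SINE families with enough reads to be ranked, 44 were higher in siStau1 DAC. By summed log2 ratio the highest were AluYe6 at 0.42, AluYd8 at 0.37 and AluSq4 at 0.27. Their medians were 0.05 over 50 elements, 0.37 over 24 and 0.22 over 526. Under the authors' factors their sums were 0.09, 0.05 and −0.06. The lowest by summed log2 ratio were the ancient families MamSINE1 at −0.28 and LFSINE_Vert at −0.27, and the unresolved family named Alu at −0.17. The range of the ranked SINE families was much narrower than that of the ranked LTR families. The LTR range was taken over 416 families, however. Its ends, MamGyp-int and LTR6A, had 52.5% and 89.5% of their reads on 1 element.

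The LINE class is led by L1, of which L1HS is the youngest and still mobile human family, followed by the primate families L1PA2 to L1PA17 in rising order of age, L1PB and the mammalian L1M families. The medians were 0.13 (−0.04 to 0.29) for L1HS over 291 elements, 0.13 for L1PA2 and −0.01 for L1PA3, and they were lower in several older families, at −0.20 for L1PA6, −0.54 for L1PA15 and −0.73 for L1PA16. The order did not follow age throughout, since L1PA7, L1PA10 and L1PA12 had −0.12, −0.14 and −0.05, above L1PA6, and L1PA17 had −0.55, above L1PA16. The oldest groups had −0.72 for L1MA, −0.68 for L1MC and −0.69 for L1ME. At 100 or more reads the medians were −0.18 for L1HS, −0.23 for L1PA2, −0.31 for L1PA6, −0.40 for L1PA16 and −0.29 for L1ME. The summed log2 ratios were 0.01 for L1HS, −0.11 for L1PA2, 0.04 for L1PA8, −0.03 for L1PA11, −0.46 for L1PA16 and −0.66 for L1ME. Young L1 copies are nearly identical, and reads that fit several of them are uncertain.

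**Figure D5:**
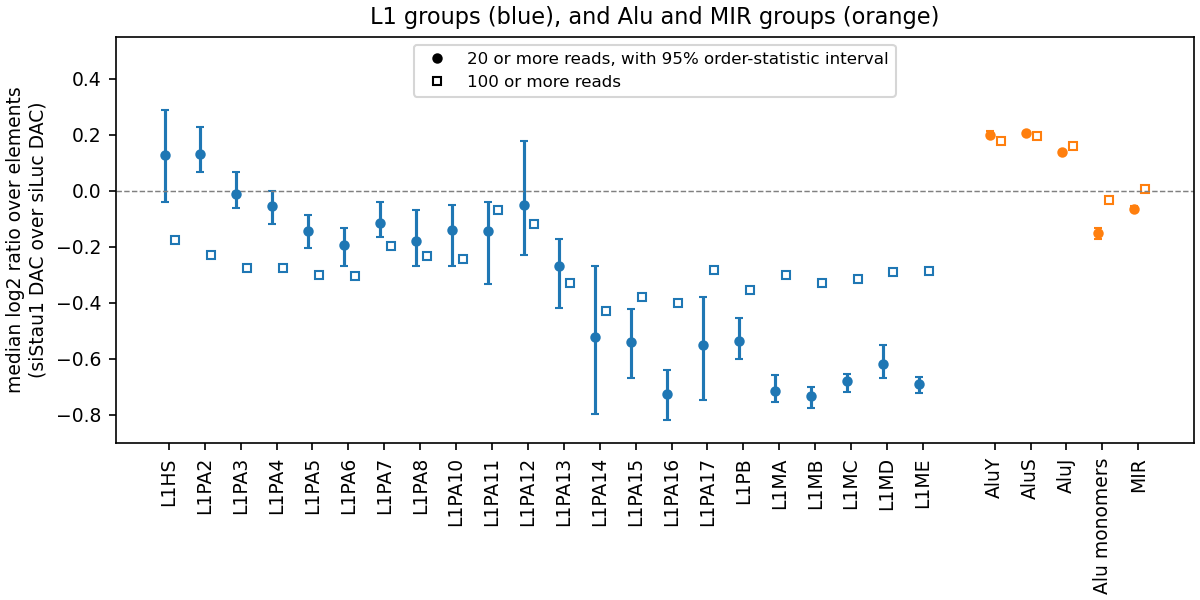
Median log2 ratio of siStau1 DAC over siLuc DAC (y axis) of L1 groups from youngest to oldest (blue) and of Alu and MIR groups (orange); filled circles are elements with 20 or more reads with 95% order-statistic intervals, open squares those with 100 or more reads. The filled circles go from 0.13 in L1HS to −0.69 in L1ME, while the open squares lie at −0.18 and −0.29 there.

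The older L1 groups were those with more reads in siLuc DAC. L1ME had 3485 RPM in siLuc DMSO, 9045 under siLuc DAC and 5726 under siStau1 DAC, and all L1M families together had 14471, 30263 and 21132. Of the 34591 L1M elements 7.99% were 2-fold or more higher and 39.4% lower, against the backgrounds of 15.5% and 14.8%. For L1M, siStau1 DAC lay between the other two libraries, and its summed log2 ratio against siLuc DMSO was 0.55. L1HS had 311, 279 and 282 RPM in siLuc DMSO, siLuc DAC and siStau1 DAC, so its 3 libraries lay close together. The LINE families with the lowest summed ratios were L1ME3D at −1.05, L1ME3F at −0.97 and L1ME4a at −0.97, and their elements with most reads held 3.45%, 2.50% and 2.55% of reads. The highest were L1P4d at 0.61, L1PBb at 0.51 and L1M2a at 0.36. L1PBb was at 0.15 without its element with most reads. The older LINE groups L2, CR1 and RTE had medians of −0.27, −0.21 and −0.32, and of −0.14, −0.06 and −0.08 at 100 or more reads.

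DNA transposons, which moved by excision and are no longer active in humans, were not higher in 265 of 302 families. Totals outside Alu gave 90 of the 302 higher, and the authors' factors 12. The TcMar group, which includes Tigger, had a median of −0.51 over 10252 elements and −0.25 at 100 or more reads. It had 3748, 8805 and 6567 RPM in siLuc DMSO, siLuc DAC and siStau1 DAC. The hAT group, which includes Charlie elements, had a median of −0.18 over 26936 elements and −0.07 at 100 or more reads. PiggyBac had −0.88 over 109 elements. The lowest families by summed reads were hAT-5_Mam at −1.14, Charlie25 at −1.13 and Cheshire at −1.06. The highest were MamTip1b at 0.80, Arthur1C at 0.69 and UCON73 at 0.60. In MamTip1b and UCON73 1 element held 57.0% and 88.6% of reads, and without it the ratios were 0.04 and −0.36. The medians of MamTip1b, Arthur1C and UCON73 were −0.12, −0.18 and −0.28, opposite in sign to their sums.

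Single elements with the highest ratios were ones with 0 reads in siLuc DAC. Among LINE elements with 500 or more reads the highest was L2b_202_193, with 1108 reads in siLuc DMSO, 0 under siLuc DAC and 1134 under siStau1 DAC, at least 314-fold higher in siStau1 DAC against a floor of 3 reads in the siLuc DAC library. Among SINE elements MIRb_405_166 had 1531, 0 and 1539 reads, with a lower limit of 7.38 for the interval of the log2 ratio. AluJb_966_5 had 1135, 0 and 1400 reads, with a lower limit of 7.24. Each of these had about as many reads in siStau1 DAC as in siLuc DMSO. With 0 reads in siLuc DAC, each passed the limit of 500 reads through siStau1 DAC alone. Of elements with 500 or more reads, 14 of 2858 LTR, 6 of 3185 LINE and 19 of 33559 SINE elements were at 0 in siLuc DAC, against a background of 0.0927% over all classes. In siStau1 DAC 0 of these elements were at 0, in any class.

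Elements with 20 or more reads in each library, a limit chosen after the values were seen, included large ratios too. L1PA7_22060_2 had 3446 reads in siLuc DMSO, 28 under siLuc DAC and 3602 under siStau1 DAC, a log2 ratio of 6.71 (5.99 to 7.49). MSTB_2339_2 had 4078, 39 and 3838 reads, a log2 ratio of 6.33. AluYk2_2081_2 had 2473, 72 and 2890 reads, a log2 ratio of 5.05. In all of these siLuc DAC was the low library. Ranking on the ratio put siLuc DAC below siStau1 DAC in them, so this is no separate result.

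At the other end, also among elements with 500 or more reads, the ratios were as follows. L1PB1_8044 had 33 reads in siLuc DMSO, 456 under siLuc DAC and 69 under siStau1 DAC, a log2 ratio of −2.98 (−3.51 to −2.48). MIRc_313_68 had 82, 601 and 97 reads, at −2.89. MER52D_9463, an LTR element, had 84, 470 and 78 reads, at −2.85. AluSx1_2128_140 had 306, 1450 and 318 reads, at −2.46. In the 4 elements named here siLuc DAC was the high library. The ranking on the ratio likewise put it above siStau1 DAC in them.

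Among repeats derived from structural RNAs, the most abundant copies of 7SL, 7SK, U3 and LSU-rRNA_Hsa are given first. The 7SL copy with most reads, of the RNA of the signal recognition particle, had 3889072 reads in siLuc DMSO, 3941953 under siLuc DAC and 3738825 under siStau1 DAC, a log2 ratio of −0.34. The 7SK copy with most reads, of an RNA that regulates transcription elongation, had 4511504, 4505363 and 4568774 reads, at −0.25. The U3 copy with most reads, of a nucleolar RNA, had 1791581, 1528971 and 1800420 reads, at −0.03. The large ribosomal RNA differed most: 1 element held 99.6% of the reads of LSU-rRNA_Hsa, with 710025 reads in siLuc DMSO, 2054057 under siLuc DAC and 1287082 under siStau1 DAC, at −0.94. The siLuc DAC library was the highest of the 3 for this element. Other small RNA repeats had summed log2 ratios of −0.38 for HY1, −0.52 for HY3, −0.90 for HY4, 0.39 for U1, 0.37 for U5 and −0.55 for U6. The tRNA class had −0.32 summed, but −0.06 without its element with most reads, which held 22.9% of reads, and a median of 0.08.

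Simple repeats, tandem runs of a short unit, had a median of −0.19 over 21557 elements, with 10.2% 2-fold or more higher and 20.2% lower. The median followed the base composition of the unit named in the table in part. Units without G or C had a median of −0.54 over 2490 elements, and those with over 50%, but not all, G and C had −0.05 over 8406 elements. Elements of only G and C had −0.07 over 1683. By unit, (A)n had −0.61 and (T)n −0.52, while (CTC)n had 0.02 and (CAG)n 0.04. The unit (CGC)n, of only G and C, had −0.27, as did (CA)n and (GT)n. Across the 23 units with 100 or more elements, which share the same 2 libraries, Spearman's rho between the unit's GC share and its median was 0.68, given as a description. At 100 or more reads (A)n, (T)n, (CTC)n and (CAG)n had medians of −0.40, −0.30, −0.07 and 0.04. Of the other units without G or C, (TA)n went from −0.47 to 0.0069 at that depth and (AT)n from −0.29 to −0.25. Low-complexity tracts had a median of −0.25 over 4501 elements.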

How the data were processed

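Per the labels, J2-bound RNA was sequenced from 1 library per condition. The authors deposited 1 table per pair of libraries, with a signal per repeat element. The values showed how that signal was built: 1 was added to each count, and the library was then multiplied by a constant of 1 (siLuc DMSO), 1.92 (siLuc DAC) or 1.27 (siStau1 DAC). Undoing these steps recovered whole reads for 100% of values, within a tolerance of 1e-06. In the siLuc DMSO column the authors deposited counts with 1 added and no constant. The origin of the constants, called the authors' factors, is not given in the sources used here. Numbers of 2, 4 or 6 reads were more common than 1, 3 or 5 (466549 against 201719 elements in siStau1 DAC), so reads were halved into pairs for the intervals of summed ratios. The submitters' processing notes name bcl2fastq 2.20, HISAT2 2.1.0, featureCounts, DESeq 1.36.0, Cuffdiff 2.2.1, Cuffnorm 2.2.1 and the hg38 build, with no roles. The total RNA table holds, per the file headers, the authors' FPKM with 1 value per group of 2 libraries, and their q-value.

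After adding 0.5 reads, libraries were scaled to their sums of reads on repeats, and ratios were taken for elements with 20 or more reads in both decitabine libraries together. Families were summed over all their elements. Sums carry Wilson 95% intervals and medians order-statistic 95% intervals. Reads have no molecular identifiers, so intervals cover counting error only, and the floor of 3 reads takes no account of pairs. No test, count model or adjusted p was possible with 1 library per condition, and a difference of 2-fold or more was counted instead. Families named per class were the 3 highest and 3 lowest by summed ratio with 2000 or more reads and 10 or more elements of 20 reads, and elements those with 500 or more reads, beside groups given whatever their values. The members, groups and lists were chosen with earlier results of these data known. The ratios were tried on simulated reads drawn independently for each element, without the runs at 0 or the correlation of neighbours seen here. Alternatives were 3 planned scalings, other filters, 2 reads added, and leaving out elements at 0 or each family's element with most reads. Python 3.11.15, numpy 2.4.6, pandas 2.3.3, scipy 1.17.1 and matplotlib 3.10.9 were used.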

Additional observations from a re-analysis of the deposited data

How the results depend on the processing

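No paired analysis was possible because each condition has 1 J2 library and the total RNA table gives 1 value per group. In the order all elements, LTR, LINE, SINE and DNA, the authors' factors gave median log2 ratios of −0.30, −0.38, −0.70, −0.17 and −0.59, with 485 families higher in siStau1 DAC. Totals outside Alu gave 0.23, 0.15, −0.17, 0.36 and −0.059, with 1964 families higher. Totals outside structural RNA repeats, chosen after seeing the data, gave −0.064, −0.15, −0.47, 0.063 and −0.36. Counting every element with a read gave 0.0073, 0.25, −0.63, 0.25 and −0.48, with 550068 elements 2-fold or more higher and 542420 lower. A limit of 100 reads gave 0.094 for all elements, −0.21 for LINE, 0.17 for SINE and −0.11 for DNA, with 19180 elements higher and 11721 lower. Median ratio scaling gave 0.021 for all elements, 0.15 for SINE and −0.27 for DNA. With 2 reads added, all elements, LTR, LINE and SINE had 0.014, −0.072, −0.37 and 0.14. Without elements at 0 in either library, all elements, LTR and SINE had 0.0073, −0.11 and 0.13. Without elements 8-fold or more lower in siLuc DAC than in siLuc DMSO, also chosen after seeing the data, all elements, LTR, LINE and SINE had 0.0030, −0.10, −0.40 and 0.13. Under these settings the LINE and DNA medians were below 0 throughout. At 1000 or more reads, however, the DNA median was 0.04. The LTR, SINE and all-element medians lay on both sides of 0, by construction where only the scaling differs. Leaving out the element with most reads moved 64 named groups and families by more than their counting interval and left 71 within it. The satellites SAR and (CATTC)n, at 2.67 and 1.39, had 100% of their reads on 1 element, so no reads were left without it. Among the others past 2-fold the sign changed in the simple repeat (CTGCCC)n, from −1.37 to 0.18. Below 2-fold it changed in UCON73 (0.60 to −0.36), HSATI (0.54 to −0.27), SATR1 (−0.13 to 0.17), U3 (−0.032 to 0.10) and LTR5_Hs (0.0045 to −0.021). Depth also limits single elements: at 20 to 49 reads, 44.2% of elements lay beyond 2-fold in either direction.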
